A study of Lepidium sativum with 30 samples.

Results

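The comparison described here set whole garden cress (Lepidium sativum) seeds imbibed for 12 h with Myrigalone A (MyA), a phytotoxic dihydrochalcone of the shrub Myrica gale, against seeds imbibed for 12 h without it, and asked which transcripts differed between them. It rests on 10 of the 30 poly(A) RNA libraries of the series, 5 per group. All seeds carry the label L. FR14 with the trade names Keimsprossen and Juliwa, and per the study's methods MyA was given at 0.5 mM while the controls received the solvent at 0.1% by volume. The other libraries used as a frame came from dry seed, control and MyA seed at 6 h, and MyA seed at 18 h. Both 12 h groups had the same time of imbibition but not the same stage: the study's methods place the onset of endosperm rupture, the step before the radicle emerges, at 12 h without MyA and at 18 h with it. An effect of MyA on a transcript and a delay of the whole programme therefore cannot be told apart at 12 h.

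Of the 48306 assembled contigs with read counts, 4958 were left out because their level in the fifth MyA 18 h library was over 4-fold above the mean of the other 4 MyA 18 h libraries. The share of counts they held is given below for each library. The last contigs kept stood at ratios of 3.98, 3.98 and 3.97, and the first ones left out at 4.03, 4.03 and 4.05. This left 43348 contigs, of which 20201 reached 5 CPM (reads scaled to the total of each library) in at least 4 of 29 libraries and were tested. The 29 libraries include the MyA groups, so some contigs entered the test only through MyA 12 h and 18 h libraries. A contig was called higher or lower at a Benjamini-Hochberg adjusted p below 0.05 in edgeR's quasi-likelihood test together with a change of over 2-fold. All levels are CPM scaled by TMM, a factor that corrects for differences in library composition, and each fold change is on the log2 scale with its standard error (SE). A contig carries the name of the Arabidopsis thaliana gene that the study matched it to. The roles given are those of the Arabidopsis gene, and levels of different contigs cannot be compared per length.

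Plants dispose of foreign compounds in steps. Oxidoreductases, cytochrome P450 enzymes and hydrolases first oxidise, reduce or hydrolyse the compound. Glutathione transferases and glycosyltransferases then attach glutathione or a sugar to it. Transporters of the ABC and MATE families move the product into the vacuole or out of the cell. Arabidopsis seedlings raise many of these transcripts together when they meet herbicide safeners, oxylipins or other reactive chemicals.

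The libraries held 26013670 to 29476934 counts in control 12 h and 22735661 to 32694757 in MyA 12 h seed. Before they were left out, the contigs of the excluded set held 1.102% to 2.53% of the counts in the control libraries and 4.76%, 6.58%, 7.96%, 6.67% and 1.86% in MyA replicates 1 to 5, so that MyA replicate 5 alone lay within the control range. Summed over the members kept, markers of maturing seed (4 of 5 kept) lay at 6.11 to 11.5 CPM in control and at 9.95 to 38.5 CPM in MyA libraries, and green tissue markers (4 of 7 kept) at 7.01 to 16.3 and 13.3 to 87.2 CPM. Of 5 tested contigs in the plastid list described below, the 3 with positive log2 fold changes were the tested green tissue markers. The 2 with negative ones, among them ELIP1 (-0.77 ± 0.22), were not in that sum. Histone transcripts, which mark dividing cells, stood at 119 to 171 and 117 to 206 CPM. No marker was at 0 over the 10 libraries. Of the seed, green tissue and histone markers 3, 3 and 11 contigs were tested, and none of these passed. PSBA, in the excluded set, stood at 62.2 to 165 CPM of all counts in control and 120 to 615 in MyA libraries. Whether the seed and green tissue markers have a part in the results was not tested. In whole seeds fewer cells of a type and less RNA per cell cannot be told apart.

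MyA seed at 12 h differed from the control of the same time in few transcripts, and nearly all of these were higher. Of the 20201 tested contigs, 26 were higher (0.129%) and 1 was lower (0.00495%), while the median log2 fold change over all tested contigs was 0.006, with quartiles of -0.12 and 0.12. Among the 26 were 5 Tau-class glutathione transferases, 5 oxidoreductases, 3 glucosyltransferases, 3 stress transcription factors, 2 ABC transporters, 2 serine acetyltransferases, 2 stress-related contigs (tolB and DJ1A), 1 cytochrome P450, 1 class III peroxidase, a TIM-barrel protein and a contig without a name. Every MyA library stood above every control library for all 26. Such a separation was reached by 144 contigs upwards (0.713%) and by 105 downwards (0.52%) among all tested. At an unadjusted p below 0.05, 717 contigs were higher and 507 lower. DESeq2 called 63 higher and 2 lower, the 26 and the 1 among them. With no contig left out, 1902 were higher and 2 lower, so the small number of calls holds only for the contigs kept. The count of higher contigs fell to 17, 17, 16 and 16 without control replicates 1, 2, 3 and 5, and lay between 18 and 35 without any of the other 6 libraries. These families came from lists that the study had selected on the same libraries, so their counts are no independent evidence of direction.

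**Figure D1:**
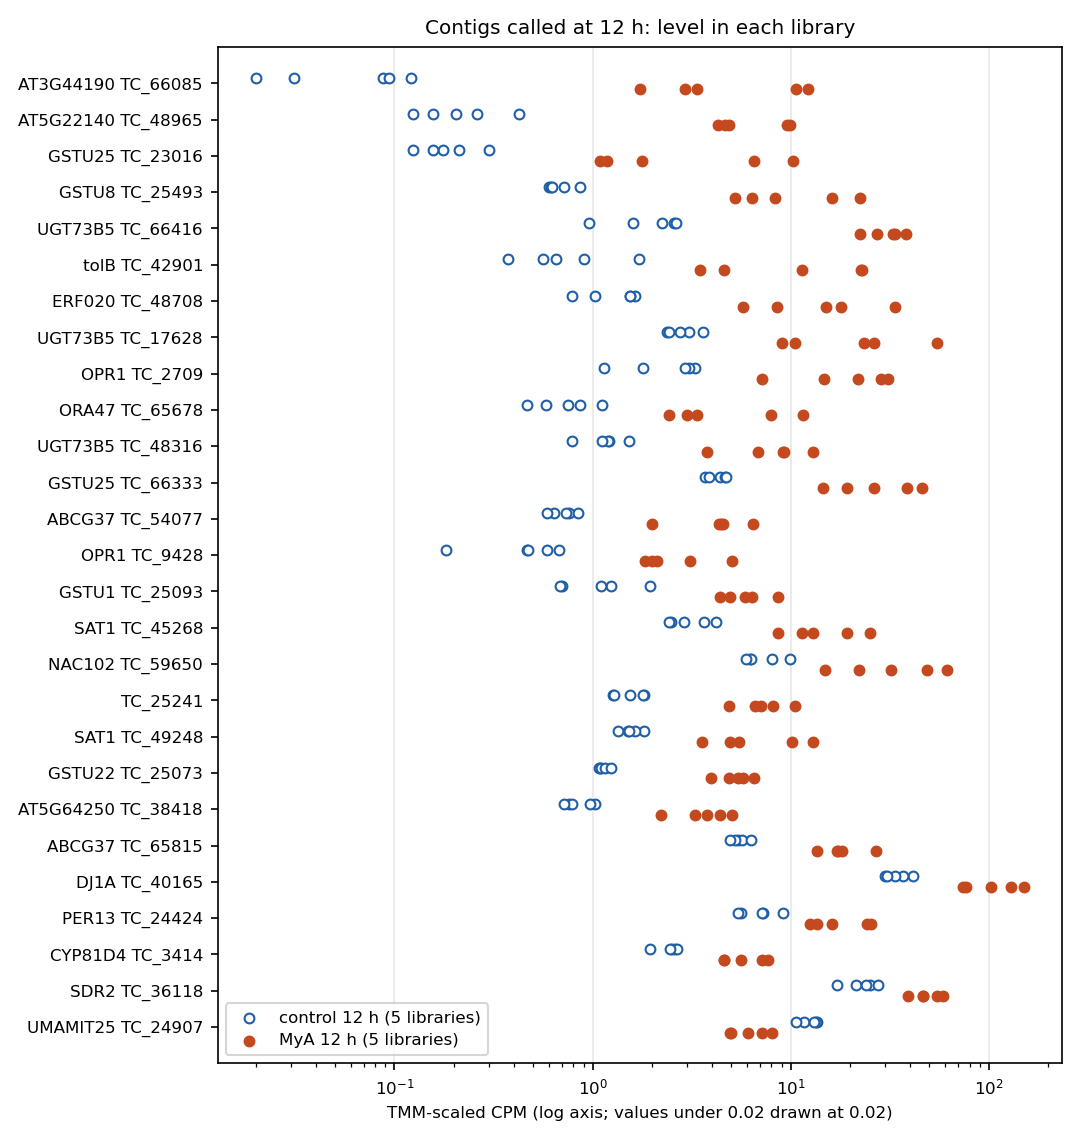
Level of each contig called at 12 h in every library, as TMM-scaled CPM on a log axis (open points, 5 control 12 h libraries; filled points, 5 MyA 12 h libraries; values under 0.02 drawn at 0.02). For the 26 higher contigs all MyA points lie to the right of all control points, from AT3G44190 with a log2 fold change of 6.41 to SDR2 with 1.09, and for UMAMIT25 the order is turned.

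Among the oxidoreductases, the transcripts of the first step, 5 of 8 tested contigs were higher, with a median log2 fold change of 2.03. Among the called contigs the largest change was that of AT3G44190 (TC_66085), which encodes a FAD/NAD(P)-binding oxidoreductase. In control replicates 1 to 5 it stood at 0.121, 0.0877, 0.094, 0 and 0.031 CPM and in MyA replicates 1 to 5 at 12.21, 2.94, 1.73, 3.36 and 10.7 CPM. It was thus barely present in control seed, with 11 reads over 5 libraries against 1001 in MyA seed, a ratio of 94.5 with a 95% counting interval of 52.6 to 190. In dry seed and 6 h libraries AT3G44190 reached at most 0.440 CPM. This contig therefore passed the 5 CPM filter only through MyA 12 h and 18 h libraries, the groups where it was high. The fitted log2 fold change was 6.41 ± 0.76 (SE, adjusted p = 0.00429, edgeR). AT5G22140 (TC_48965), another FAD/NAD(P)-binding oxidoreductase, stood at 0.424, 0.205, 0.157, 0.262 and 0.124 CPM in control and at 9.61, 4.30, 4.68, 4.87 and 9.92 CPM in MyA seed. Its lowest MyA library was 10.14 times its highest control library, and the log2 fold change was 4.81 ± 0.39 (adjusted p = 0.000353, edgeR).

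OPR1 encodes a 12-oxophytodienoate reductase that acts on oxylipins and other electrophiles and, unlike OPR3, is not needed for jasmonate synthesis. The study writes OPR1/2 for these cress genes, because OPR1 and OPR2 are very similar in sequence, so the label OPR1 may stand for either. Both tested contigs with this label rose. TC_2709 stood at 3.30, 3.07, 1.79, 2.92 and 1.15 CPM in control and at 31, 14.7, 21.9, 7.14 and 28.7 CPM in MyA seed. MyA replicate 4 was the lowest of these, still above the highest control library. The log2 fold change was 3.08 ± 0.41 (adjusted p = 0.00965, edgeR). In TC_9428 the control libraries lay between 0.182 and 0.675 CPM and the MyA libraries between 1.84 and 5.08 CPM (log2 fold change 2.57 ± 0.39, adjusted p = 0.0233, edgeR). The remaining OPR1 contig (TC_67173) was under the 5 CPM filter. SDR2 (TC_36118), a short-chain dehydrogenase, had the smallest change of the 26, from 23.01 ± 3.91 CPM to 49.0 ± 7.79 CPM (mean and SD, n = 5 each; log2 fold change 1.09 ± 0.15, adjusted p = 0.0103, edgeR). Of the contigs that did not pass, AT3G03080, a zinc-binding dehydrogenase, had a log2 fold change of 1.49 ± 0.33 with an adjusted p of 0.289. How reads were divided between contigs that match one gene is not given in the sources used here, so the split between the OPR1 contigs is uncertain. The same holds for the other genes matched by several contigs, among them GSTU25, GSTU22, UGT73B5, SAT1, ABCG37, SDR2, DJ1A, tolB and NAC102.

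Of 5 tested cytochrome P450 and reductase contigs, which insert oxygen into a compound or feed electrons to that reaction, 1 was higher, with 3 higher and 2 lower at an unadjusted p below 0.05. CYP81D4 (TC_3414) stood at 2.51, 1.959, 2.60, 2.66 and 2.45 CPM in control and at 4.63, 4.62, 5.60, 7.66 and 7.19 CPM in MyA seed. The control libraries were nearly level while MyA replicates 4 and 5 were the highest, and the log2 fold change was 1.28 ± 0.18 (adjusted p = 0.0154, edgeR). CYP81D8 had a larger difference in its means, 5.21 ± 2.73 against 27.5 ± 24.9 CPM, but its MyA libraries ran from 5.30 to 65.5 CPM and overlapped the control, which reached 9.82 CPM (adjusted p = 0.492, edgeR).

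Tau-class glutathione transferases attach glutathione to electrophilic compounds, and 5 of their 7 tested contigs were higher, with a median log2 fold change of 2.42. The 2 others had values of 1.06 and 1.42 and did not pass. GSTU25 TC_23016, GSTU8, GSTU22 and GSTU1 stood under 5 CPM in every dry seed, 6 h and control 12 h library. They thus entered the test through MyA 12 h and 18 h libraries, so the share called and the median are not independent of the filter. GSTU25 (TC_66333) stood at 4.39, 3.71, 4.64, 4.72 and 3.85 CPM in control and at 38.5, 19.2, 14.5, 26.2 and 45.8 CPM in MyA seed. The control libraries lay within 1.27-fold of each other and the MyA libraries within 3.16-fold, with replicates 1 and 5 at the top. Its log2 fold change was 2.76 ± 0.29 (adjusted p = 0.00238, edgeR). The other tested GSTU25 contig (TC_23016) was low in control seed, at 0.212, 0.175, 0.157, 0.300 and 0.124 CPM, and stood at 6.49, 1.18, 1.77, 1.09 and 10.3 CPM in MyA seed. MyA replicates 1 and 5 carried most of that difference, a 9.44-fold range within the group, and the log2 fold change was 4.43 ± 0.73 (adjusted p = 0.041, edgeR).

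GSTU8 (TC_25493) was also highest in MyA replicates 5 and 1, at 16.2, 5.26, 6.34, 8.32 and 22.3 CPM against 0.605, 0.614, 0.721, 0.862 and 0.621 CPM in control. Every MyA library was at least 6.11 times the highest control library, and the log2 fold change was 4.09 ± 0.43 (adjusted p = 0.00231, edgeR). GSTU22 (TC_25073) differed least within the groups among these 5 contigs, with 1.09, 1.08, 1.097, 1.16 and 1.24 CPM in control and 5.72, 3.97, 4.90, 5.44 and 6.501 CPM in MyA seed. This gave a log2 fold change of 2.22 ± 0.17 and the second smallest adjusted p of all contigs tested (0.000221, edgeR). GSTU1 (TC_25093) lay between 0.683 and 1.95 CPM in control and between 4.40 and 8.61 CPM in MyA seed (log2 fold change 2.42 ± 0.30, adjusted p = 0.0068, edgeR). Both tested contigs that did not pass were also above the control in their means, among them GSTU19 (TC_22725) with 4.86 ± 2.87 against 13.05 ± 3.97 CPM and an adjusted p of 0.39.

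Glucosyltransferases, which attach glucose to hydroxyl, carboxyl or amino groups, had 3 of 8 contigs higher and a median log2 fold change of 1.82. All 3 match UGT73B5, an enzyme that in Arabidopsis is linked to redox status and pathogen responses. TC_66416 stood at 2.24, 1.61, 2.57, 2.62 and 0.962 CPM in control and at 33.5, 22.4, 27.1, 32.7 and 38.2 CPM in MyA seed. The MyA libraries lay within 1.70-fold of each other, and this contig had the smallest adjusted p of the comparison (8.76e-05, edgeR) with a log2 fold change of 3.94 ± 0.26. TC_17628 varied far more, from 9.03 CPM in MyA replicate 4 to 54.9 CPM in MyA replicate 5, against 2.38 to 3.60 CPM in control (log2 fold change 3.12 ± 0.46, adjusted p = 0.0205, edgeR). TC_48316 averaged 1.17 ± 0.26 CPM in control against 8.40 ± 3.39 CPM in MyA seed (mean and SD, n = 5 each; log2 fold change 2.84 ± 0.31, adjusted p = 0.00246, edgeR).

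The other 5 glucosyltransferase contigs all had positive fold changes that did not pass. UGT75D1, at 21.5 ± 3.10 against 37 ± 5.85 CPM, came closest with an adjusted p of 0.0619. UGT74E1 (TC_22750), whose close relative UGT74E2 acts on the auxin precursor indole-3-butyric acid, had no overlap between groups, at 6.61 to 9.38 CPM in control and 10.06 to 27.1 CPM in MyA seed (log2 fold change 1.17 ± 0.23, adjusted p = 0.146, edgeR).

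Of the ABC and MATE transporters 2 of 10 tested contigs were higher, with a median log2 fold change of 1.12. Both match ABCG37, a plasma membrane exporter of the auxin precursor indole-3-butyric acid and of phenolic compounds. TC_65815 stood at 5.45, 5.67, 6.33, 5.25 and 4.93 CPM in control and at 17.4, 17.1, 18.21, 13.6 and 27 CPM in MyA seed. Its lowest MyA library was 2.14 times the highest control library (log2 fold change 1.75 ± 0.17, adjusted p = 0.00154, edgeR). TC_54077 averaged 0.712 ± 0.10 CPM in control against 4.36 ± 1.58 CPM in MyA seed, with MyA replicate 4 lowest at 1.99 CPM (log2 fold change 2.61 ± 0.29, adjusted p = 0.00295, edgeR). ABCB4, an auxin transporter, lay above every control library in each MyA library, at 6.29 to 7.43 against 13.1 to 51.2 CPM, but did not pass (log2 fold change 1.95 ± 0.35, adjusted p = 0.078, edgeR). ABCG40, a transporter of abscisic acid, had values of 0.847 to 1.37 CPM in control and 1.80 to 9.12 CPM in MyA seed (adjusted p = 0.179, edgeR).

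Glutathione, ascorbate and redox enzymes had 2 of 9 tested contigs higher, both matching SAT1, a serine acetyltransferase that makes the precursor of cysteine and thereby feeds glutathione synthesis. TC_45268 stood at 3.66, 4.21, 2.48, 2.89 and 2.42 CPM in control and at 19.3, 8.66, 13, 11.4 and 25 CPM in MyA seed. Replicates 1 and 5 were again the highest of the MyA libraries, and the log2 fold change was 2.30 ± 0.29 (adjusted p = 0.0068, edgeR). TC_49248 lay between 1.35 and 1.82 CPM in control and between 3.58 and 12.9 CPM in MyA seed (log2 fold change 2.24 ± 0.33, adjusted p = 0.0227, edgeR). DHAR2, which regenerates ascorbate, had control libraries at 0.712 to 1.75 CPM and MyA libraries at 1.56 to 7.95 CPM and did not pass (log2 fold change 2.31 ± 0.45, adjusted p = 0.128, edgeR). Of 2 tested peroxidase contigs PER13 (TC_24424), a class III peroxidase of the cell wall, rose from 6.89 ± 1.49 CPM to 18.39 ± 6.04 CPM (log2 fold change 1.41 ± 0.23, adjusted p = 0.0354, edgeR). For PER13 the lowest MyA library was 1.38 times the highest control library, the narrowest gap among the 26.

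All 15 tested stress transcription factor contigs had positive fold changes, with a median of 1.57, and 3 of them passed. All 20 members of this list also stand in the study's own lists for this comparison, made from the same libraries. Their shared sign is therefore no independent evidence. ERF020 (TC_48708), an AP2/ERF factor, stood at 1.03, 1.64, 0.784, 1.54 and 1.55 CPM in control and at 18.0, 5.73, 15.2, 8.51 and 33.5 CPM in MyA seed. The MyA libraries spanned 5.85-fold, and the log2 fold change was 3.63 ± 0.46 (adjusted p = 0.0068, edgeR). ORA47 (TC_65678), an AP2/ERF factor that in Arabidopsis activates jasmonate synthesis genes, averaged 0.757 ± 0.25 CPM in control and stood at 3.00, 2.43, 11.6, 3.36 and 7.98 CPM in MyA seed. Here replicates 3 and 5 were the high libraries (log2 fold change 2.89 ± 0.46, adjusted p = 0.0354, edgeR). NAC102 (TC_59650), a NAC factor, lay between 5.96 and 9.93 CPM in control and between 14.9 and 61.4 CPM in MyA seed (log2 fold change 2.29 ± 0.35, adjusted p = 0.0237, edgeR). A second NAC102 contig (TC_58329) and NAC032 came close, with adjusted p of 0.0556 and 0.0602. ERF2 had a log2 fold change of 2.60 ± 0.74 but an adjusted p of 0.542.

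Among 8 tested defence and stress signalling contigs 2 were higher. tolB (TC_42901), which matches a tolB-related Arabidopsis gene, stood at 0.908, 1.72, 0.376, 0.562 and 0.652 CPM in control and at 11.5, 4.58, 22.6, 3.50 and 22.8 CPM in MyA seed. Replicates 3 and 5 were high and replicates 2 and 4 low among the MyA libraries (log2 fold change 3.92 ± 0.61, adjusted p = 0.0273, edgeR). Another tested tolB contig (TC_61219) did not pass, and its groups overlapped (log2 fold change 2.27 ± 0.52, adjusted p = 0.289, edgeR). DJ1A (TC_40165) matches a homologue of the human DJ-1 protein that in Arabidopsis is linked to oxidative stress tolerance. It stood at 41.7, 30.05, 36.9, 33.6 and 30.7 CPM in control and at 129.5, 74.1, 76.9, 102.1 and 149.9 CPM in MyA seed (log2 fold change 1.62 ± 0.20, adjusted p = 0.00645, edgeR). OXI1, a kinase activated by oxidative bursts, had a log2 fold change of 2.38 ± 0.61 that did not pass, since its MyA libraries ran from 4.63 to 39.9 CPM and its control libraries up to 5.99 CPM (adjusted p = 0.409, edgeR). Outside the lists, AT5G64250 (TC_38418), a TIM-barrel protein, rose from 0.850 ± 0.14 CPM to 3.75 ± 1.08 CPM (log2 fold change 2.13 ± 0.24, adjusted p = 0.00341, edgeR). The contig without a name (TC_25241) rose from 1.55 ± 0.26 CPM to 7.45 ± 2.07 CPM (log2 fold change 2.26 ± 0.21, adjusted p = 0.00115, edgeR).

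**Figure D2:**
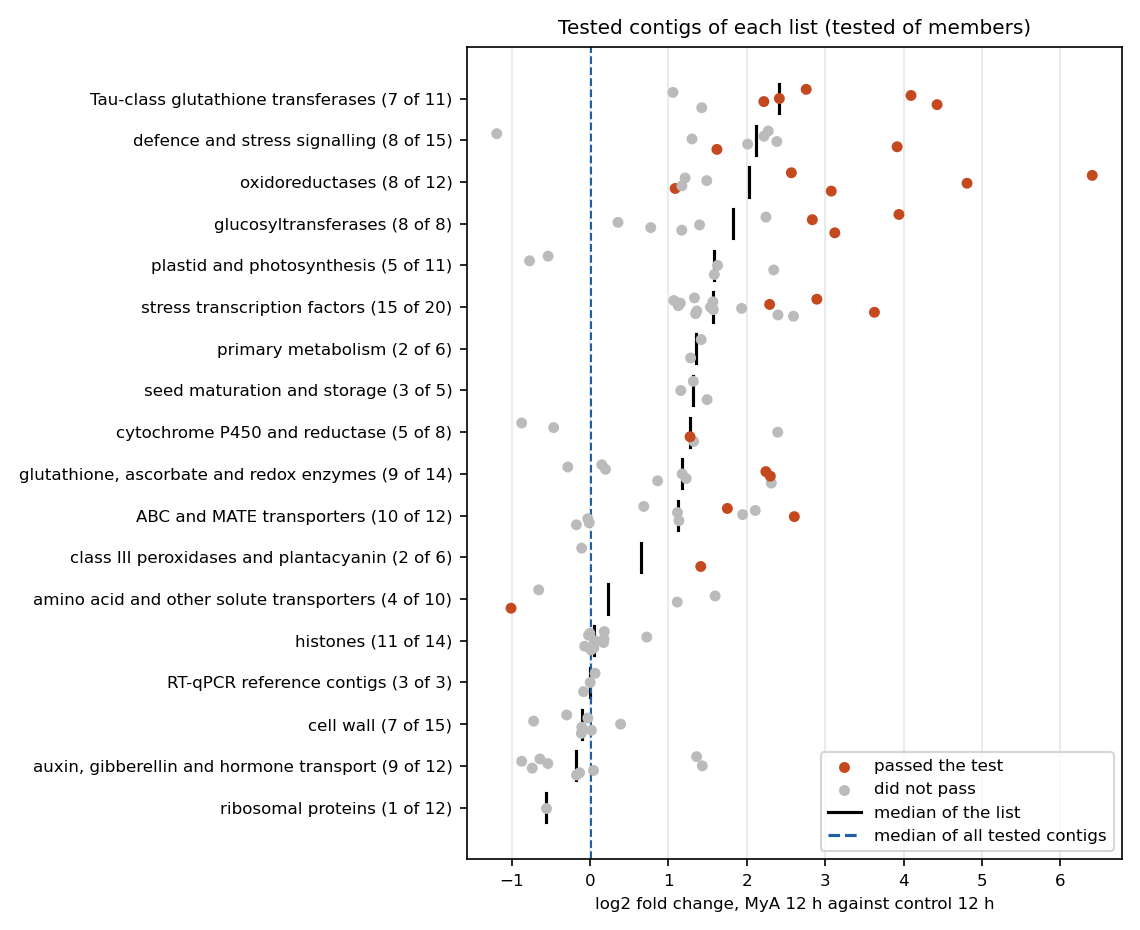
Log2 fold change (MyA 12 h against control 12 h) of every tested contig of the 18 lists; red points passed the test and grey points did not, black bars are list medians and the dashed line is the median of all tested contigs, 0.006. Medians run from 2.42 for Tau-class glutathione transferases down to 0.05 for histones and -0.17 for auxin, gibberellin and hormone transport, with a single contig tested for ribosomal proteins. The lists differ in how many members the study had selected on these same libraries (11 of 11 Tau-class glutathione transferases, 1 of 14 histones). Their medians are thus no independent evidence of direction.

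The only contig lower in MyA seed was UMAMIT25 (TC_24907), an amino acid exporter of the developing seed in Arabidopsis. It stood at 13.6, 11.6, 13.5, 10.6 and 13.1 CPM in control and at 5.00, 4.94, 6.08, 8.09 and 7.16 CPM in MyA seed. The groups did not overlap, and the log2 fold change of -1.01 ± 0.15 lay just past the fold threshold (adjusted p = 0.0227, edgeR). Over all 10 fits that left out 1 library the log2 fold change ranged from -1.11 to -0.93 and the adjusted p reached 0.103 (edgeR). The call was lost without control replicates 1, 2, 3 or 5 and without MyA replicates 1, 2 or 3. It was also lost where the reference contigs set the scale, with a filter of 5 CPM in 4 of the 10 libraries and in a single fit of 29 libraries, each with the fold change just under the threshold, and with glmTreat against 1.5-fold (adjusted p = 1, edgeR).

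No other named contig passed on this side, and the following 10 had the smallest unadjusted p among those. GA20OX3, a late enzyme of gibberellin synthesis, averaged 10.4 ± 1.80 CPM in control against 6.24 ± 0.92 CPM in MyA seed (log2 fold change -0.74 ± 0.15, adjusted p = 0.178, edgeR). Its lowest control library, at 7.601 CPM, lay beside its highest MyA library, at 7.59 CPM. BOR2, a boron transporter of roots, had 52.0 ± 4.72 against 33.2 ± 7.07 CPM, and DMC1, a recombinase of meiosis, 25.5 ± 2.23 against 16.5 ± 3.64 CPM. AT5G60530, a protein related to late embryogenesis abundant proteins, had the largest fold change of the 10, -1.39 ± 0.35, at 4.83 ± 1.87 against 1.85 ± 0.71 CPM. The log2 values were -0.79 for FAD4L1, -0.54 for AT3G06620, -0.54 for HLS1, -0.87 for CYP78A7, -0.87 for the amino acid transporter LHT1 and -0.53 for YCF3. Adjusted p over the 10 ran from 0.178 to 0.435.

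Lists of growth and housekeeping functions gave no call, or 1 call, in edgeR's test. Of 9 tested contigs for auxin, gibberellin and hormone transport, 0 were higher and 0 lower, with 2 higher and 4 lower at an unadjusted p below 0.05 and 2 higher and 0 lower by DESeq2. The list's median was -0.17, and it held contigs of both signs, such as GA2OX6, which inactivates gibberellins (log2 fold change 1.36 ± 0.30, adjusted p = 0.258, edgeR), beside GA20OX2 at -0.64 ± 0.21. Histones had a median of 0.05 over 11 contigs with 0 at an unadjusted p below 0.05 and 0 by DESeq2, and cell wall contigs a median of -0.11 over 7, with 0 higher and 1 lower at an unadjusted p below 0.05 and 0 by DESeq2. The 3 contigs used as references in the study's RT-qPCR, PP2AA2, CAC and Hobbit, had log2 fold changes of 0.00, 0.06 and -0.08.

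Seed maturation contigs and plastid contigs had positive medians, 1.32 over 3 and 1.59 over 5 tested contigs, without a call in edgeR's test. At an unadjusted p below 0.05, 3 and 3 of them were higher and 0 and 2 lower, and DESeq2 called 1 and 2 higher and 0 and 0 lower. RAB18, a dehydrin of mature seeds, stood at 6.46, 16.3, 19.7, 11 and 26.9 CPM in MyA against 4.48 to 7.61 CPM in control seed, so MyA replicate 1 lay within the control range (adjusted p = 0.359, edgeR). RBCS-1A (TC_38813), the small subunit of Rubisco, was highest in MyA replicate 5 at 43.5 CPM and lowest in replicate 2 at 4.37 CPM, within the control range of 1.89 to 4.70 CPM (adjusted p = 0.354, edgeR). Of the plastid list 5 of 11 contigs had been left out with the excluded set, as had 1 of 5 seed maturation contigs.

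Contigs under the 5 CPM filter were reached with a fit over the 37879 contigs that had at least 5 counts in 4 libraries, where 33 were higher (0.0871%) and 1 lower (0.00264%). The 33 included all 26 of the first fit. Of 68 list members tested only there, 3 were higher and 0 lower in edgeR's test, with 41 higher and 9 lower at an unadjusted p below 0.05. AATP1 (TC_33132), an AAA-ATPase, stood at 0.0908, 0.322, 0.376, 0.150 and 0.124 CPM in control and at 4.46, 2.69, 2.62, 3.83 and 3.19 CPM in MyA seed. It had 34 reads in control and 495 in MyA libraries (log2 fold change 3.92 ± 0.35, adjusted p = 0.000368, edgeR) and stayed called in all 10 fits that left out 1 library. NHL25 (TC_54597), related to proteins of disease resistance signalling, had 7 and 132 reads, a ratio of 19.6 with a 95% counting interval of 9.24 to 49.7 (adjusted p = 0.0132, edgeR), and was called in 8 of 10 such fits. A further GSTU25 contig (TC_19975) had 2 and 117 reads, a ratio of 60.8 with an interval of 16.4 to 508 (adjusted p = 0.0394, edgeR). Its MyA libraries stood at 0.543, 0.537, 0.258, 0.284 and 2.00 CPM, and it was called in 4 of the 10 fits, with adjusted p up to 0.17. Outside the lists AT4G08555, the RING protein AT5G53110 and the contigs TC_24386 and TC_25593, which have no name and were picked after their values were seen, completed the calls in this fit. AT4G08555 was called in 5, AT5G53110 in 2, TC_24386 in 10 and TC_25593 in 8 of the 10 fits that left out 1 library.

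In the frame of the other groups the called contigs had several shapes over time, given here as levels with no test, since the 12 h libraries that chose the contigs enter them. The highest group mean of the 26 lay in MyA 18 h seed for 14, in MyA 12 h seed for 3, in dry seed for 0 and in one of the other groups for 9. A first shape was a mean in MyA seed at 12 h above that of dry seed, of both 6 h groups and of control seed at 12 h, with a still higher mean in MyA seed at 18 h. AT3G44190 averaged 0.088 CPM without and 0.274 CPM with MyA at 6 h, and 6.18 and 26.3 CPM with MyA at 12 h and 18 h. GSTU25 (TC_66333) went from 3.41 CPM in MyA seed at 6 h to 28.9 CPM at 12 h and 154 CPM at 18 h, with the 18 h libraries between 124.8 and 210.5 CPM, and GSTU22 from 0.639 to 5.31 and 12.17 CPM.

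Another shape was a mean level at 6 h near or above that of MyA seed at 12 h, in both control and MyA seed, with low levels in control seed at 12 h. OPR1 (TC_2709) averaged 33.0 CPM without and 41.0 CPM with MyA at 6 h, 2.45 and 20.7 CPM at 12 h, and 26.5 CPM with MyA at 18 h. NAC102 had 59.3 and 73.9 CPM at 6 h, 7.31 and 35.8 CPM at 12 h and 36.0 CPM at 18 h. ERF020, tolB, CYP81D4, AT5G64250, both SAT1 contigs and UGT73B5 TC_17628 and TC_48316 also had higher mean levels in control seed at 6 h than at 12 h. Such a decline in control seed was found for 22 of the 26 contigs (84.6%) and for 51.6% of all tested contigs. A decline of any size was thus not particular to those named. A control mean at 12 h under 1/2 of that at 6 h was found for 21 of the 26 (80.8%) and for 16.8% of all tested contigs. Control levels at 12 h also entered the choice of the 26, so this share is no independent evidence. A last shape was a mean in MyA seed at 6 h near that at 12 h, with lower control means at both times. A higher mean in MyA than in control seed at 6 h did not by itself set it apart. That was found for 20 of the 26 contigs (76.9%) and for 47.1% of all tested contigs. UGT73B5 TC_66416 averaged 6.23 CPM without and 33.1 CPM with MyA at 6 h, 2.00 and 30.8 CPM at 12 h, and 51.5 CPM with MyA at 18 h. UMAMIT25, the contig lower in MyA seed, was low at 6 h in both groups (2.34 and 1.95 CPM) and at 12 h reached 12.49 CPM without and 6.25 CPM with MyA, and 9.75 CPM at 18 h with MyA.

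**Figure D3:**
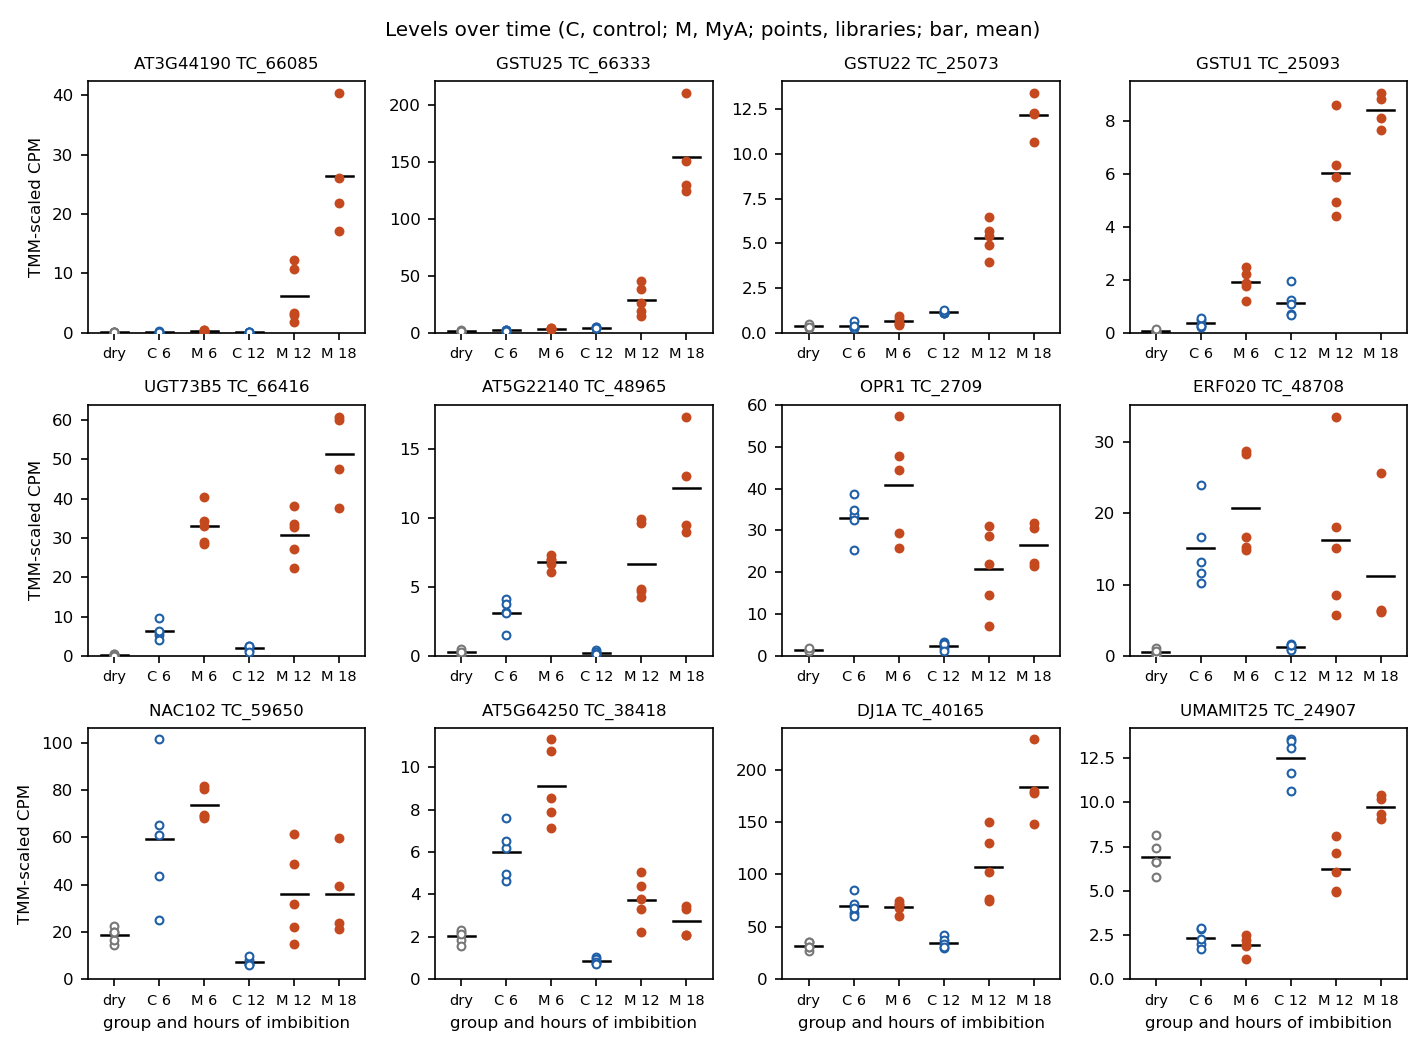
Levels of 12 contigs in every library of dry seed, control (C, open blue) and MyA (M, filled red) seed at 6 h, 12 h and, for MyA, 18 h, as TMM-scaled CPM (points, libraries; bars, group means; each panel has its own axis from 0). AT3G44190 and the glutathione transferases are highest in MyA 18 h seed, whereas OPR1, ERF020, NAC102 and AT5G64250 have 6 h levels in both groups near or above those of MyA 12 h seed.

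Whether the effect of MyA differed between 6 h and 12 h was tested in a fit of the 20 libraries of both times. The effect was more positive at 12 h for 15 of 20201 contigs (0.0743%) and less positive for 0 (0%). At an unadjusted p below 0.05 these numbers were 671 and 311, and by DESeq2 52 and 3. Of the 15, 11 were among the 26 called at 12 h. For AT5G22140 the log2 effect was 1.12 at 6 h and the difference between the times 3.69 (95% interval 2.80 to 4.57, adjusted p = 0.000851, edgeR). For UGT73B5 TC_48316 it was -0.02 at 6 h and the difference 2.86 (2.22 to 3.49, adjusted p = 0.000582, edgeR), and for DJ1A 0.00 and 1.62 (1.17 to 2.07, adjusted p = 0.0042, edgeR). GSTU8 had a difference of 3.31 (2.39 to 4.23, adjusted p = 0.0042, edgeR). These 4 passed in all 20 fits that left out 1 library.

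Differences also passed for tolB (4.21), UGT73B5 TC_17628 (3.25), ERF020 (3.17), OPR1 TC_2709 (2.76), GSTU25 TC_66333 (2.03), SAT1 TC_45268 (1.93) and AT5G64250 (1.51), with adjusted p from 0.0165 to 0.0493. Among contigs not called at 12 h, DHAR2 (2.86), UGT74E1 (1.71) and TC_36604 and TC_66547 (11.3 and 1.26, both without a name and picked after their values were seen) passed as well. Of the 20 fits that left out 1 library, UGT73B5 TC_17628 passed in 18, TC_66547 in 17, OPR1 and GSTU25 in 15 each and ERF020 and UGT74E1 in 14 each. The others passed in fewer than 10, TC_36604 in 8, tolB in 7, SAT1 in 6, DHAR2 in 5 and AT5G64250 in 4. The count was 4 without control 12 h replicate 3 or 5, 7 without control 12 h replicate 1, 5 without MyA 6 h replicate 3, 8 without MyA 6 h replicate 2, 6 without control 6 h replicate 1, 9 without MyA 12 h replicate 5 and 35 without MyA 12 h replicate 2.

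GSTU1 and PER13 already had their effect at 6 h, and the estimated difference between the times was small. In GSTU1 the log2 effect was 2.40 at 6 h, where it passed the test, and the difference was 0.01 (95% interval -0.85 to 0.88). In PER13 it was 1.56 at 6 h, also past the test, and the difference was -0.14 (-0.66 to 0.38). The third contig that passed at both times, UGT73B5 TC_66416, had a 6 h effect of 2.41 and a difference of 1.53 (0.89 to 2.18, adjusted p = 0.124, edgeR). For AT3G44190 the difference of 4.83 had an interval of 2.53 to 7.12 and did not pass (adjusted p = 0.214, edgeR).

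**Figure D4:**
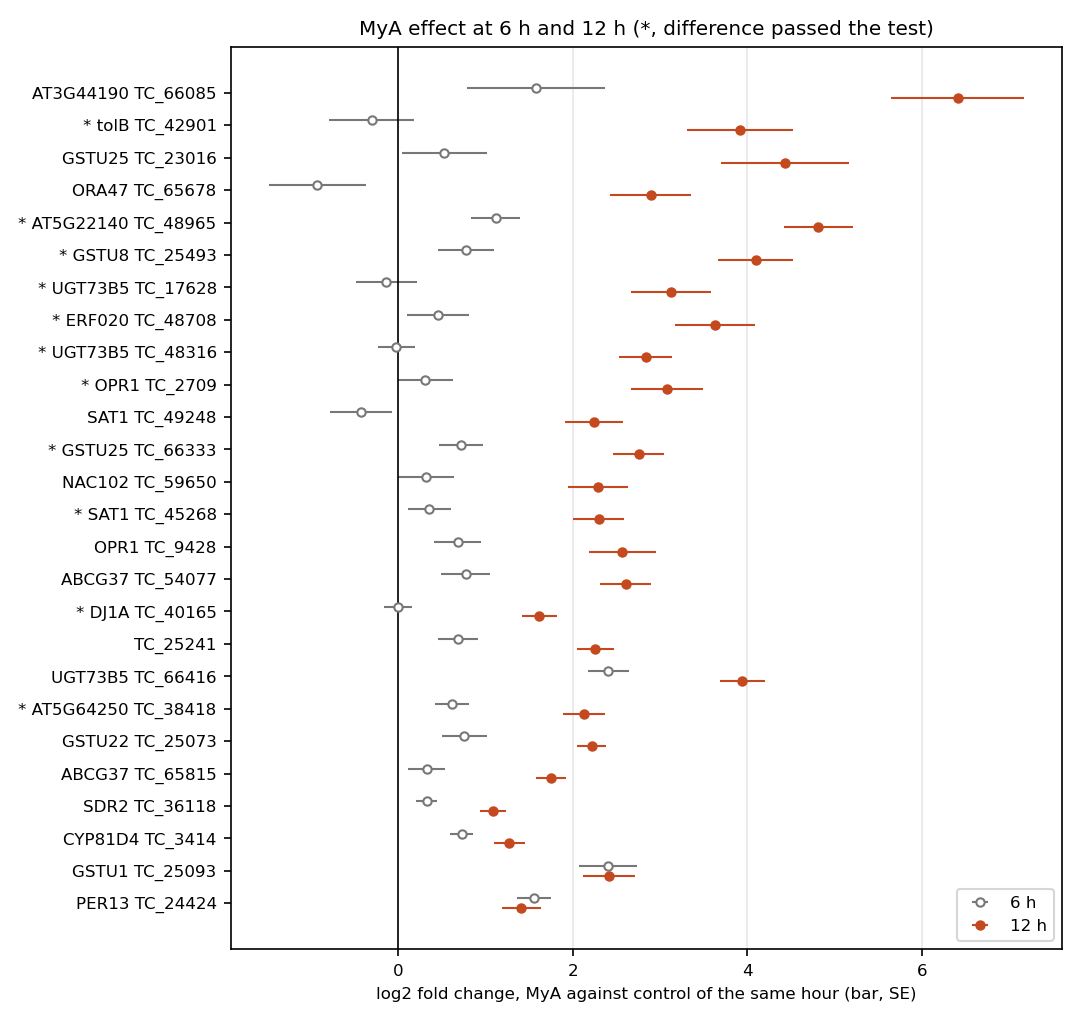
Log2 fold change of MyA against the control of the same time at 6 h (open grey) and 12 h (filled red) for the 26 contigs higher at 12 h, with SE bars; stars mark the 11 contigs whose difference between the times passed the test. Both effects lie close together for GSTU1 and PER13 and lie farthest apart for AT3G44190 (1.58 and 6.41), whose difference did not pass.

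The range from lowest to highest library was wider in MyA than in control seed for 20 of the 25 higher contigs with no control library at 0. MyA replicate 5 was the highest of the 5 MyA libraries for 19 of the 26 contigs, replicate 2 was the lowest for 14 and replicate 4 for 10. The median log2 ratio of the 26 to their control means was 2.56, 1.84, 2.46, 1.88 and 3.03 in MyA replicates 1 to 5. Replicate 5 was also the MyA library with the smallest share of counts in the excluded set, 1.86%, and the part of this share in the order was not tested. Without MyA replicate 5, 23 contigs were higher, 22 of them among the 26, and without MyA replicate 2, 35 were, all 26 among them.

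How the spread touched single contigs could be read from the fits that left out 1 library. In all 10 fits, 15 of the 26 stayed called, namely AT3G44190, AT5G22140, GSTU25 TC_66333, GSTU8, GSTU22, GSTU1, UGT73B5 TC_66416 and TC_48316, both ABCG37 contigs, SAT1 TC_45268, ERF020, DJ1A, AT5G64250 and TC_25241. OPR1 TC_2709 missed the threshold without control replicate 3 (adjusted p = 0.0519), SDR2 without control replicate 2 (0.0533) or 5 (log2 fold change 0.997, just under the fold threshold) and CYP81D4 without control replicates 1, 2, 3 or 5 (up to 0.0669). The other 8 were called in 2 to 4 of the 10 fits and were lost in each fit without control replicate 1, 3 or 5 and in some of the others. Their highest adjusted p was 0.103 for UGT73B5 TC_17628, 0.189 for GSTU25 TC_23016, 0.142 for PER13, 0.132 for tolB, 0.103 for SAT1 TC_49248, 0.117 for NAC102, 0.152 for ORA47 and 0.106 for OPR1 TC_9428. None of the 26 changed direction in these fits, but with every MyA library above every control library they could hardly do so.

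**Figure D5:**
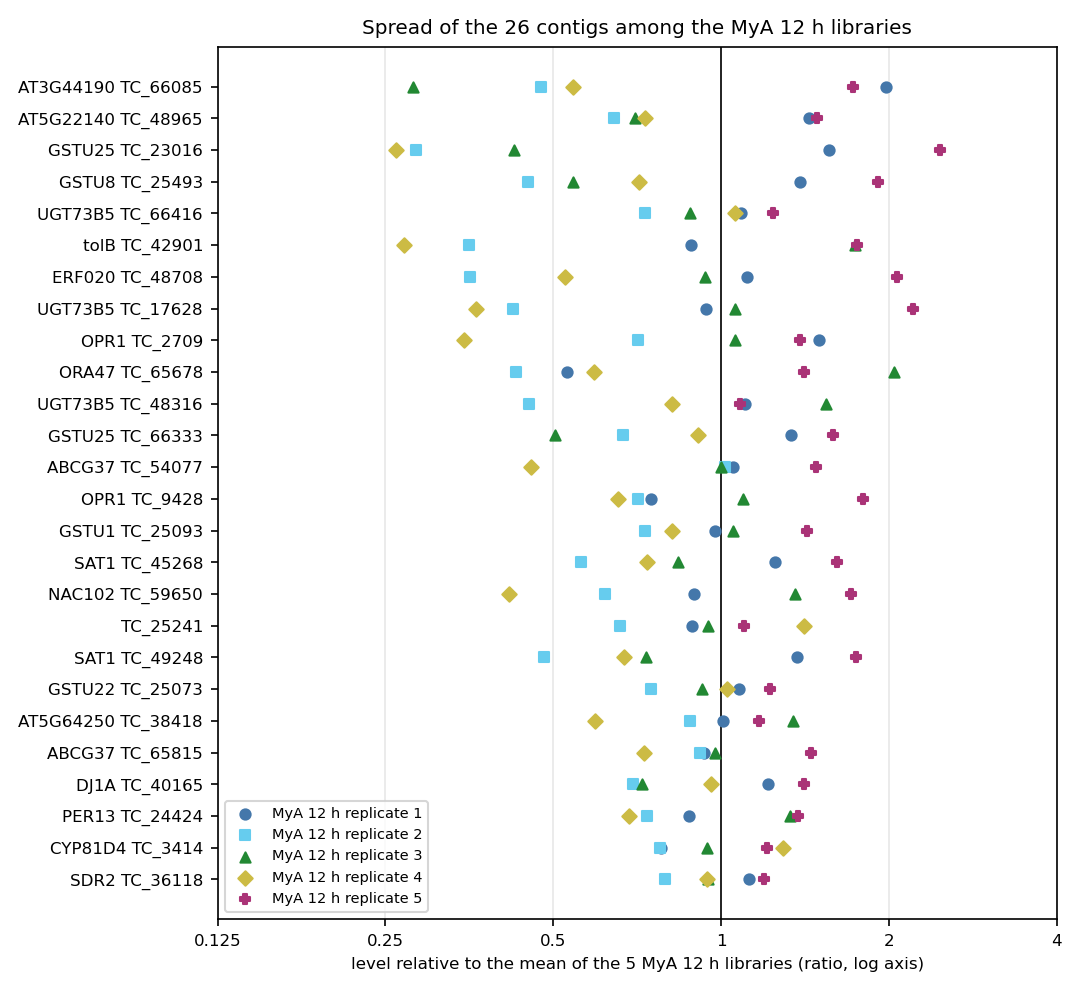
Level of each of the 26 higher contigs in the 5 MyA 12 h libraries, divided by the mean of those libraries, on a log axis (one symbol per replicate). Replicate 5 lies farthest to the right for 19 contigs and replicates 2 and 4 farthest to the left for 14 and 10, and the range is widest for GSTU25 TC_23016 (9.44-fold) and narrowest for SDR2 (1.505-fold).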

How the data were processed

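The values are read counts per assembled contig, which the authors deposited as whole, unnormalised numbers. According to the methods and the submitters' processing notes, BWA mapped the reads to an assembly made by the study and HTSeq counted them. Versions are not given in the sources used here. Contigs were named from the study's supplementary lists (450 contigs, of which 201 were tested). The 4958 contigs of the excluded set were removed before totals and TMM factors were computed, and the fifth MyA 18 h library, which the authors left out, enters only in the rule for that set. For the tested contigs 5 CPM equal 101 to 168 counts.

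Tests used R 4.3.3, edgeR 4.0.16 (glmQLFit and glmQLFTest, limma 3.58.1) on the 10 libraries of the comparison, and on 20 for the interaction with time. CPM levels were scaled over 29 libraries. Named contigs are all those called, all members of 18 gene lists (by count and median, with the called ones and up to 4 others) and the 10 named contigs of smallest p on the side with few calls. The members and lists were chosen with earlier results of these data known. Alternatives were DESeq2 1.42.0, other scalings, filters, fold thresholds and limits of the excluded set, a single fit of 29 libraries, glmTreat, the replicate number as a block, and leaving out each library. In data simulated for the 12 h comparison over 20201 contigs, 78.6% of 2-fold, 94.5% of 4-fold and 98.6% of 8-fold changes were recovered, with 9 false calls. Here a change counted at an adjusted p below 0.05 in edgeR's test, without the fold threshold of the calls above. The median log2 estimate of the 2-fold changes was 0.988, just under that threshold, so 78.6% does not describe those calls. Each contig was also drawn independently, with the same spread in both groups. The MyA libraries ranged more widely than control for most higher contigs and shared an order of replicates. None of these rates therefore carries over to the data.

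Counting intervals cover counting error only. Separate seed batches for the 5 libraries of a group are not stated in the labels, and the p-values thus cover only how these libraries vary. Columns with the authors' own fold changes and p-values were not used, and all 30 count columns matched a label. No sequences are shown because none were in the sources used here.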

Additional observations from a re-analysis of the deposited data

Results flagged for a closer look

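For 4 of 76 sets of 5 libraries checked, 1 library stood far from the rest, about as many as chance gives (1 in 20). GSTU25 TC_19975 stood at 1.996 CPM in MyA 12 h replicate 5, against at most 0.543 CPM in the others. DHAR2 stood at 1.754 CPM in control 12 h replicate 2, against at most 0.787 CPM. The contig TC_36604 stood at 0.2339 CPM in control 12 h replicate 2 and at 10.49 CPM in MyA 12 h replicate 5, against at most 0.0627 and 0.189 CPM in the others of each group.

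For 15 contigs the MyA effect differed between 12 h and 6 h by the interaction test in edgeR, always towards a higher value at 12 h. The log2 differences were 4.211 for tolB, 3.688 for AT5G22140, 3.313 for GSTU8, 3.246 for UGT73B5 TC_17628, 3.166 for ERF020, 2.861 for DHAR2, 2.856 for UGT73B5 TC_48316 and 2.76 for OPR1. They were 2.033 for GSTU25, 1.934 for SAT1, 1.713 for UGT74E1, 1.62 for DJ1A, 1.514 for AT5G64250 and 1.261 for TC_66547. For TC_36604 the value of 11.33 joined a 6 h effect of -6.40 with the single high MyA 12 h library, and the contig also stood at 14.2 to 31.3 CPM in 4 of 5 control 6 h libraries and at most 0.366 CPM in the MyA 6 h libraries. It passed in 8 of 20 fits that left out 1 library.

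The contigs of the excluded set, which enter no comparison above, held a median of 6.576% of the counts in MyA 12 h and 1.474% in control 12 h libraries.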

How the results depend on the processing

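No fold change of the 27 contigs called at 12 h or of the 10 named on the lower side changed sign in 874 refitted values, while 98 calls were lost and 2 gained. The unchanged signs say little, since the groups did not overlap for the 27 and the 10 were picked by their p in the same libraries. RLE factors and library totals gave the same 26 and 1 calls, the 5-count filter, no filter, no fold threshold and 2- or 8-fold limits for the excluded set 27 to 37 higher and 1 lower. Higher and lower calls were 63 and 2 with DESeq2, 14 and 0 with 5 CPM in 4 of the 10 libraries, 47 and 0 in a single fit of 29 libraries, 17 and 0 with glmTreat against 1.5-fold, 28 and 0 with the reference contigs as scale, and 1902 and 2 with no contig left out, which also gave 32 low list contigs in place of 3. The filter on 10 libraries tests fewer contigs; the cause of the other shifts was not tested. Scaling moved the median of all contigs to -0.05 (totals) or 0.01 (reference contigs). Leaving out 1 library gave 16 to 35 higher and 0 to 1 lower, 1 to 5 low list contigs, and 4 to 35 higher and 0 to 1 lower for the difference between times, which DESeq2 put at 52 and 3. Same-numbered MyA and control libraries correlated at 0.04 to 0.60, over 0.1 for 4 of 5 numbers, and 2 of 5 MyA libraries correlated best with their own number. These 5 values cannot decide whether the numbers stand for pairs, and the labels do not say. With the replicate block 12 contigs were higher and 0 lower, 11 of them among the 26, and 8 and 0 for the difference between times. With this block 16 of the 27 calls were not made, among them UMAMIT25 and, of the 15 contigs called in every fit without 1 library, GSTU1, UGT73B5 TC_48316 and ERF020 (adjusted p = 0.06235 each) and SAT1 TC_45268 (0.08077). The difference between times was then not called for ERF020, OPR1, GSTU25, SAT1, AT5G64250, DHAR2, UGT74E1 and TC_36604. In all, 11 of the 27 were called under every alternative that tested them. MyA 18 h held the highest mean of 14 contigs under both scalings. For contigs under 1 CPM in control seed the depth limits the precision of the fold change.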
